A study of Rattus norvegicus with 12 samples.

Results

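The genes described here are the granins and the enzymes that cut and finish prohormones, 10 genes taken by name from a rat array on which 26311 gene names were printed and 19382 genes were measured. They are Chga, Chgb, Scg2, Scg3 and Vgf of the granin family, the chaperone Scg5, the convertases Pcsk1 and Pcsk2, the carboxypeptidase Cpe and the amidating enzyme Pam. They were taken by gene name, from a list drawn up with earlier results of these data known. The 12 one-colour arrays held pituitary RNA of Wistar rat fetuses at gestational day 18, in 4 groups of 3: male TCDD, male control, female TCDD and female control. TCDD is 2,3,7,8-tetrachlorodibenzo-p-dioxin, a ligand of the aryl hydrocarbon receptor. The labels used here give neither dose nor route nor day of exposure, and they leave litters and pooling unstated, so the p-values measure the spread between these arrays, which may be partly technical.

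Granins are acidic, calcium-binding proteins that are packed into the dense-core granules of endocrine cells and neurons together with the hormones and peptides they store. Inside the granule, prohormone convertases cut precursors at pairs of basic residues, a carboxypeptidase trims the basic residues from the new ends, and an amidating enzyme converts a terminal glycine to the amide that many peptides need for activity. In the pituitary this machinery acts on proopiomelanocortin in corticotrophs and melanotrophs, and chromogranins and secretogranin II are abundant in gonadotrophs. The same genes are expressed in peptidergic sensory neurons, and ganglion transcripts were present on some of these arrays.

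Levels are log2 of the processed spot intensity minus the array's 75th percentile, so a difference of 1 is a 2-fold difference. Levels were compared between arrays. They were compared between probes only to pick the brightest probe of a gene and to find genes of similar level. Each of the 10 genes had 1 probe of 60 bases printed as 1 spot, and all 10 probes lay well above background on 12 of 12 arrays, so no gene was lost to the filter on dim probes. Since every level rests on a single sequence, 3 probes are shown, those of Scg3, Pcsk2 and Pam, which stand for a granin, a convertase and the amidating enzyme. The Scg3 probe began at base 1209 of its transcript and lay at chr8:80496358-80496417 on the minus strand of rn4, the Pcsk2 probe began at base 1807 and lay at chr3:132255540-132255599 on the plus strand, and the Pam probe began at base 1021 and lay at chr9:96977460-96977519 on the plus strand.
Scg3 probe: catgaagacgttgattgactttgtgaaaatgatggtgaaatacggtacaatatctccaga
Pcsk2 probe: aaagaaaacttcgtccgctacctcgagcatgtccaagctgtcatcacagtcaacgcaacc
Pam probe: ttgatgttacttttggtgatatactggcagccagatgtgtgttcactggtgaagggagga

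The upstream sequence of 8 of the 10 genes, all but Chga and Pcsk1, was read from RefSeq on GRCr8, as the 250 bases before the annotated start. It was searched for the cAMP response element TGACGTCA, which reads the same on both strands, and for the core GCGTG of the dioxin response element on either strand. The cAMP response element was found in 2 of 8 genes, Scg2 and Vgf, and in 1.59% of 33469 promoters of the same length. The GCGTG core was found in 3 of 8 genes, Scg3, Vgf and Cpe, and in 25.9% of those promoters. In Scg2 the element spanned bases -123 to -116 from the start, and in Vgf it spanned bases -90 to -83, with GCGTG cores at -209 to -205 on the minus strand of the gene and at -10 to -6 on the plus strand. No match overlapped another. Chgb held neither motif in this window, which says only that these letters were not there. The promoters of Scg2 and Vgf are shown for the element they share, and that of Chgb because its levels moved with those of Scg2 across the arrays. They lie at chr9:88256867-88257116 (Scg2, minus strand), chr12:25277021-25277270 (Vgf, minus strand) and chr3:140496462-140496711 (Chgb, plus strand), and capitals mark the motif matches (CACGC is GCGTG read on the other strand).
Scg2 promoter: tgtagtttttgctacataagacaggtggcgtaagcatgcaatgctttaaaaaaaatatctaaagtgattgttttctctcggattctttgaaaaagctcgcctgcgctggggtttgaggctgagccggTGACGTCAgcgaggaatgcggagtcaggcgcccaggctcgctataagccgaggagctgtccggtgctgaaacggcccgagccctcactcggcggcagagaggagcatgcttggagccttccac
Vgf promoter: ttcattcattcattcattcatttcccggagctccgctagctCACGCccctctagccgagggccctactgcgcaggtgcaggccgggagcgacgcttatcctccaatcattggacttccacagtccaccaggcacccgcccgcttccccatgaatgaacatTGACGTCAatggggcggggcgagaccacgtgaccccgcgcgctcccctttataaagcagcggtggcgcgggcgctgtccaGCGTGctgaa
Chgb promoter: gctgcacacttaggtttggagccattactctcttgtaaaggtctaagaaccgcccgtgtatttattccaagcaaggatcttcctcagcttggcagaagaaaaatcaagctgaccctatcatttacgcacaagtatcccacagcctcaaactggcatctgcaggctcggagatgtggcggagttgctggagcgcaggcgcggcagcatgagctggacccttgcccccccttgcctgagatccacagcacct
A match is a run of letters, not a site of binding.

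Avil, a marker of sensory ganglion neurons, split the arrays into 2 sets: its level was 0.18 to 1.63 on 6 arrays and -3.68 to -3.32 on the remainder. High Avil marked male TCDD replicates 1 and 2, female TCDD replicates 1 and 3, male control replicate 2 and female control replicate 2, which makes 4 exposed arrays and 2 controls. The mean level of 22 of 22 sensory ganglion neuron markers, Avil among them, was 8.28e-05 to 1.46 on these arrays, against -4.02 to -3.38 on the others. Since Avil defined the sets, its own share of this gap follows from that choice. By group that mean ranged from -3.70 to 1.46 in male TCDD and from -3.90 to 0.025 in male control arrays, and from -3.88 to 0.48 in female TCDD and from -4.02 to 0.55 in female control arrays. For pituitary endocrine cells 17 of 17 markers were measured, with a mean of -2.08 to -0.76 where Avil was high and of -1.16 to -0.32 elsewhere. By group their mean was -2.08 to -0.58 in male TCDD and -0.76 to -0.37 in male control arrays. In females it was -1.33 to -1.16 in TCDD and -0.91 to -0.32 in control arrays, so that the female groups did not overlap. The mean on female control replicate 3 left out Pomc, which had no value there. Of peripheral glia 9 of 10 markers were measured, and their mean was -1.48 to -0.08 where Avil was high and -2.90 to -2.26 elsewhere. Chromaffin and sympathetic markers, whose cells are rich in granins, had a mean over 4 of 6 of -3.91 to -2.98 where Avil was high and of -3.75 to -3.15 elsewhere. Exposure showed on every exposed array: Ahrr, the repressor induced by the aryl hydrocarbon receptor, was -0.22 to 0.68 on TCDD arrays, against -6.26 to -4.98 on control arrays (limma adjusted p = 5.12e-06). Cyp1a1, the receptor's best known target, was well above background on 6 of 6 TCDD arrays and on 0 of 6 control arrays and was at least 25.0-fold higher in TCDD arrays (limma adjusted p = 1.07e-05).

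Comparing TCDD with control pituitaries asks whether exposure before birth altered the transcripts that store and mature pituitary hormones. Chgb and Scg2 lay lower on average in TCDD arrays of both sexes, with log2 differences over both of -0.51 (SE 0.13) and -0.43 (SE 0.15). Pam lay lower as well, at -0.27 (SE 0.10), and Cpe lay higher, at 0.19 (SE 0.06). Markers of pituitary endocrine cells moved alongside, with 16 of 17 below 0 over both sexes and a median log2 difference of -0.50, and their part in the differences of the granins was not tested. As ratios of intensity, TCDD over control with 6 arrays on each side, these were 0.70 for Chgb, 0.74 for Scg2, 0.83 for Pam and 1.14 for Cpe. None of the 10 genes passed limma's test after Benjamini-Hochberg adjustment over 19382 genes, in either sex or over both, while 0.0206% of all genes did over both sexes. At an unadjusted p below 0.05 the counts were 4 of 10 genes, those just named, against 6.46% of all genes. Differences lay above 0 for 5 of 10 genes (44.2% of all genes) and below 0 for 5 of 10 (55.8% of all genes). In whole tissue, fewer cells of a type and less RNA per cell cannot be told apart.

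**Figure D1:**
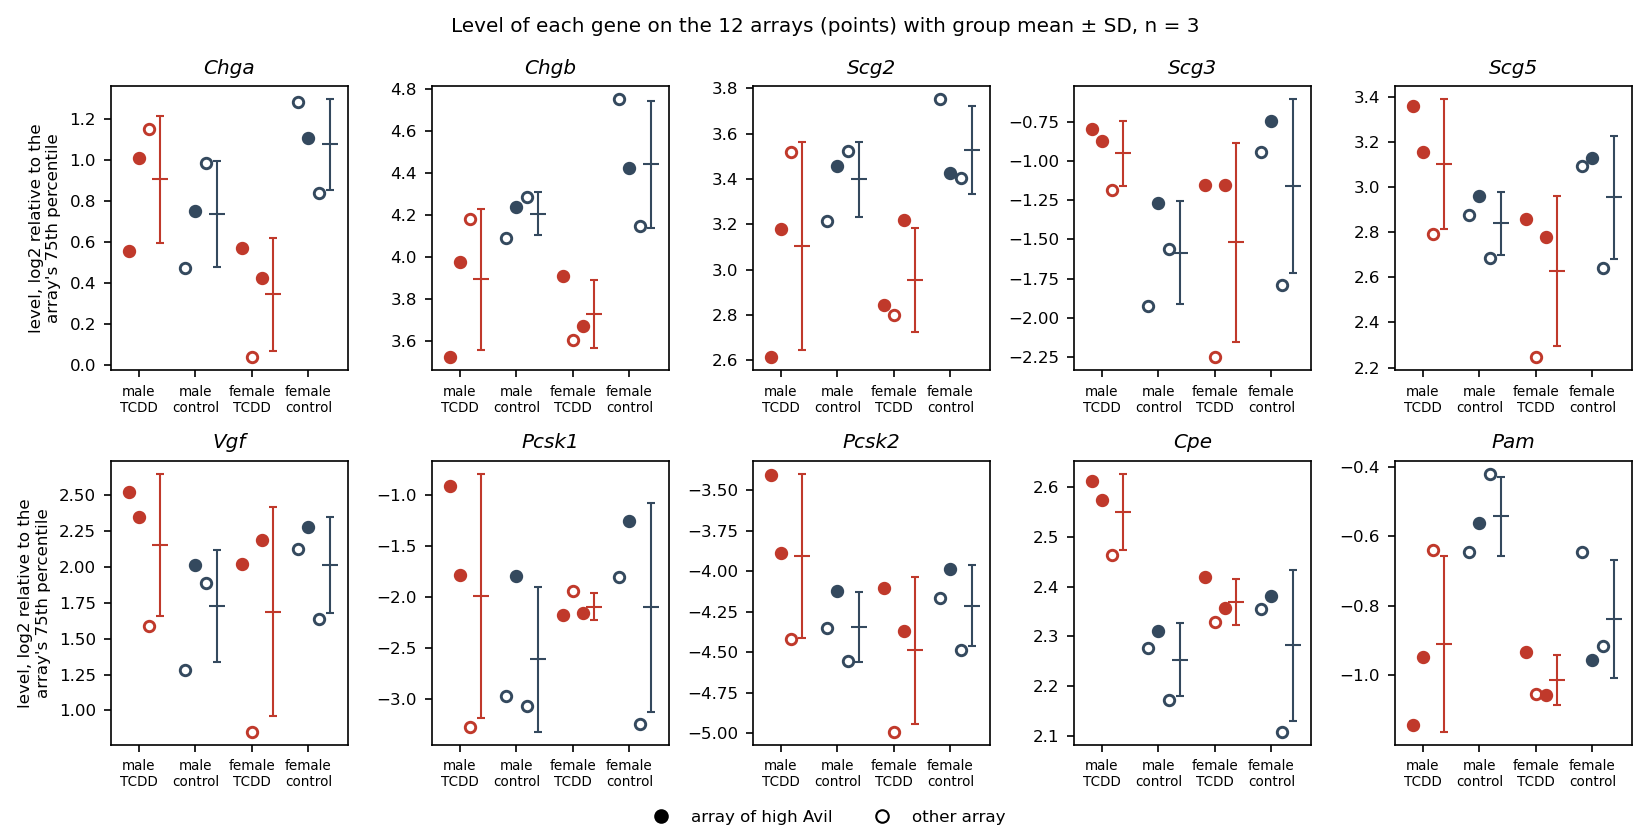
Level of each of the 10 genes (y axis, log2 of intensity minus the 75th percentile of its array, with a scale for each panel) in male TCDD, male control, female TCDD and female control arrays. Points are arrays, filled where Avil was high and open otherwise, and the bar beside them is the group mean ± SD (n = 3). Chga, Chgb and Scg2 in females, and Scg3 and Cpe in males, are the panels in which the groups of a sex do not overlap.

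Chgb encodes chromogranin B, a granule matrix protein whose fragments are released with the hormones. In males its level was 3.52, 3.97 and 4.18 on TCDD arrays, against 4.09, 4.24 and 4.28 on control arrays. In females it was 3.91, 3.60 and 3.67 on TCDD arrays, against 4.75, 4.42 and 4.14 on control arrays. The female groups did not overlap, whereas the highest male TCDD array lay within the male controls. The log2 difference was -0.31 (SE 0.18, limma adjusted p = 0.517) in males and -0.71 (SE 0.18, limma adjusted p = 1.0) in females, where all 3 exposed arrays lay below all 3 controls. Without male TCDD replicate 1 the male value was -0.13. Over both sexes the adjusted p was 0.631 with an unadjusted 95% interval of -0.80 to -0.22.

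Scg2 encodes secretogranin II, the precursor of secretoneurin. Its level on male TCDD arrays was 2.61, 3.18 and 3.52, against 3.21, 3.46 and 3.53 on male control arrays. On female TCDD arrays it was 2.85, 2.80 and 3.22, against 3.75, 3.43 and 3.40 on female control arrays. As for Chgb, the female groups stood apart and the male groups overlapped. TCDD minus control gave a log2 difference of -0.29 (SE 0.21, limma adjusted p = 0.539) in males, -0.57 (SE 0.21, limma adjusted p = 1.0) in females and -0.43 over both (limma adjusted p = 0.670; unadjusted 95% interval -0.77 to -0.10). The male value was -0.05 without male TCDD replicate 1 and -0.50 without male TCDD replicate 3.

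Chga encodes chromogranin A, the founding granin and the precursor of vasostatin and catestatin. It read 0.55, 1.01 and 1.15 on male TCDD arrays, against 0.47, 0.75 and 0.99 on male control arrays. It read 0.57, 0.04 and 0.43 on female TCDD arrays, against 1.28, 1.11 and 0.84 on female control arrays. The males overlapped with TCDD slightly higher on average, and the females did not overlap, with all 3 exposed arrays low. On the log2 scale the difference was 0.17 (SE 0.20, limma adjusted p = 0.678) in males and -0.73 (SE 0.20, limma adjusted p = 1.0) in females.

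Scg3 encodes secretogranin III, which tethers granin aggregates to the cholesterol-rich granule membrane. Its level was -0.79, -0.88 and -1.19 on male TCDD arrays, against -1.92, -1.27 and -1.56 on male control arrays. It was -1.15, -2.25 and -1.15 on female TCDD arrays, against -0.94, -0.75 and -1.79 on female control arrays. All 3 male TCDD arrays lay above the male controls, while in females replicate 2 of TCDD lay below the rest and the groups overlapped. TCDD and control means differed by 0.63 (SE 0.34, limma adjusted p = 0.509) in males and -0.36 (SE 0.34, limma adjusted p = 1.0) in females.

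Vgf encodes a secreted precursor of several neuroendocrine peptides and is known as a gene induced by nerve growth factor. It read 2.52, 2.35 and 1.59 on male TCDD arrays, against 1.28, 2.01 and 1.89 on male control arrays. It read 2.02, 0.85 and 2.19 on female TCDD arrays, against 2.12, 2.28 and 1.63 on female control arrays. The groups overlapped in both sexes, and in each sex the exposed array without high Avil was the lowest of its group. The fitted log2 difference was 0.42 (SE 0.37) in males and -0.33 (SE 0.37) in females, neither past the test (limma adjusted p = 0.586 in males and 1.0 in females).

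Pcsk2 encodes the convertase PC2, which makes the small end products of proopiomelanocortin in melanotrophs. Its level was -3.41, -3.89 and -4.42 on male TCDD arrays, against -4.35, -4.12 and -4.56 on male control arrays. It was -4.11, -4.99 and -4.37 on female TCDD arrays, against -4.17, -3.99 and -4.49 on female control arrays. The groups overlapped in both sexes. The log2 difference was 0.44 (SE 0.29, limma adjusted p = 0.526) in males and -0.28 (SE 0.29, limma adjusted p = 1.0) in females. The Pcsk2 probe was dim, at intensities of 29.8 to 106. Its difference over both sexes was 0.08 (SE 0.21), and 0.03 (SE 0.10) with normexp background correction.

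Scg5 encodes 7B2, the chaperone that Pcsk2's product needs to become active. It read 3.36, 3.15 and 2.79 on male TCDD arrays, against 2.88, 2.96 and 2.69 on male control arrays. It read 2.86, 2.25 and 2.78 on female TCDD arrays, against 3.09, 3.13 and 2.64 on female control arrays. Its high and low arrays were those of Pcsk2, male TCDD replicate 1 at the top and female TCDD replicate 2 at the bottom. TCDD minus control gave a log2 difference of 0.26 (SE 0.20, limma adjusted p = 0.550) in males and -0.33 (SE 0.20, limma adjusted p = 1.0) in females.

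Pcsk1 encodes the convertase PC1/3, which makes the first cuts in proopiomelanocortin and yields adrenocorticotropin. Its level was -0.91, -1.78 and -3.28 on male TCDD arrays, against -2.98, -1.80 and -3.08 on male control arrays. It was -2.18, -1.95 and -2.17 on female TCDD arrays, against -1.81, -1.26 and -3.25 on female control arrays. This was the most variable of the 10 genes: its SD over 12 arrays was 0.78, against a median SD of 0.22 among 1938 genes of similar level. On the log2 scale the difference was 0.63 (SE 0.63, limma adjusted p = 0.625) in males and 0.0085 (SE 0.63, limma adjusted p = 1.0) in females, with an unadjusted 95% interval over both sexes of -0.67 to 1.30. Leaving out 1 array at a time moved the male value between 0.09 (without male TCDD replicate 1) and 1.27 (without male TCDD replicate 3).

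Cpe encodes carboxypeptidase E, which removes the basic residues left by the convertases. It read 2.61, 2.57 and 2.46 on male TCDD arrays, against 2.28, 2.31 and 2.17 on male control arrays. It read 2.42, 2.33 and 2.36 on female TCDD arrays, against 2.36, 2.38 and 2.11 on female control arrays. The male groups stood apart and the female groups overlapped. Cpe varied least, with an SD of 0.15 over 12 arrays against a median of 0.16 among 1939 genes of similar level. TCDD and control means differed by 0.30 (SE 0.09, limma adjusted p = 0.494) in males and 0.09 (SE 0.09, limma adjusted p = 1.0) in females.

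Pam encodes the amidating monooxygenase that finishes peptides ending in glycine. Its level was -1.14, -0.95 and -0.64 on male TCDD arrays, against -0.65, -0.56 and -0.42 on male control arrays. It was -0.93, -1.05 and -1.06 on female TCDD arrays, against -0.64, -0.96 and -0.92 on female control arrays. In both sexes the TCDD arrays lay lower on average and overlapped the controls by a narrow margin. The fitted log2 difference was -0.37 (SE 0.13, limma adjusted p = 0.506) in males and -0.17 (SE 0.13, limma adjusted p = 1.0) in females.

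The sexes are given side by side here, and the difference between them is tested in the next comparison. In females 8 of 10 differences lay below 0, against 59.2% of all genes, and the median over the 10 genes was -0.33, against -0.04 over all genes. That median was -0.10 without female TCDD replicate 2, -0.54 without female control replicate 3 and -0.01 with slide as a fixed block. Without the arrays of high Avil it was -0.72, with female TCDD replicate 2 as the only exposed array. The female groups did not overlap for 3 of 10 genes, Chga, Chgb and Scg2, all lower in TCDD, where 5.51% of all genes were separated in that direction, and for 0 of 10 in the other direction, where 1.44% were. The mean of the pituitary endocrine markers was lower in TCDD without overlap as well. In males 7 of 10 differences lay above 0, against 48.6% of all genes, with a median of 0.28 against -0.01 over all genes. The male median was 0.16 without male TCDD replicate 1, 0.44 with slide as a fixed block and 0.11 with the ganglion covariate. Without the arrays of high Avil it was 0.02, with male TCDD replicate 3 as the only exposed array. Only Scg3 and Cpe were separated in males, both higher in TCDD, where 8.39% of all genes were, and 0 of 10 genes were separated in the lower direction, where 6.02% were. Over 6 arrays against 6, 0 of 10 genes were separated, against 0.419% of all genes (0.202% higher and 0.217% lower). No gene of the 10 was called by limma in males or in females, where 0.0103% of all genes were called in each sex. At an unadjusted p below 0.05 there were 2 of 10 genes in males (Cpe and Pam; 9.34% of all genes) and 3 of 10 in females (Chga, Chgb and Scg2; 2.68% of all genes).

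**Figure D2:**
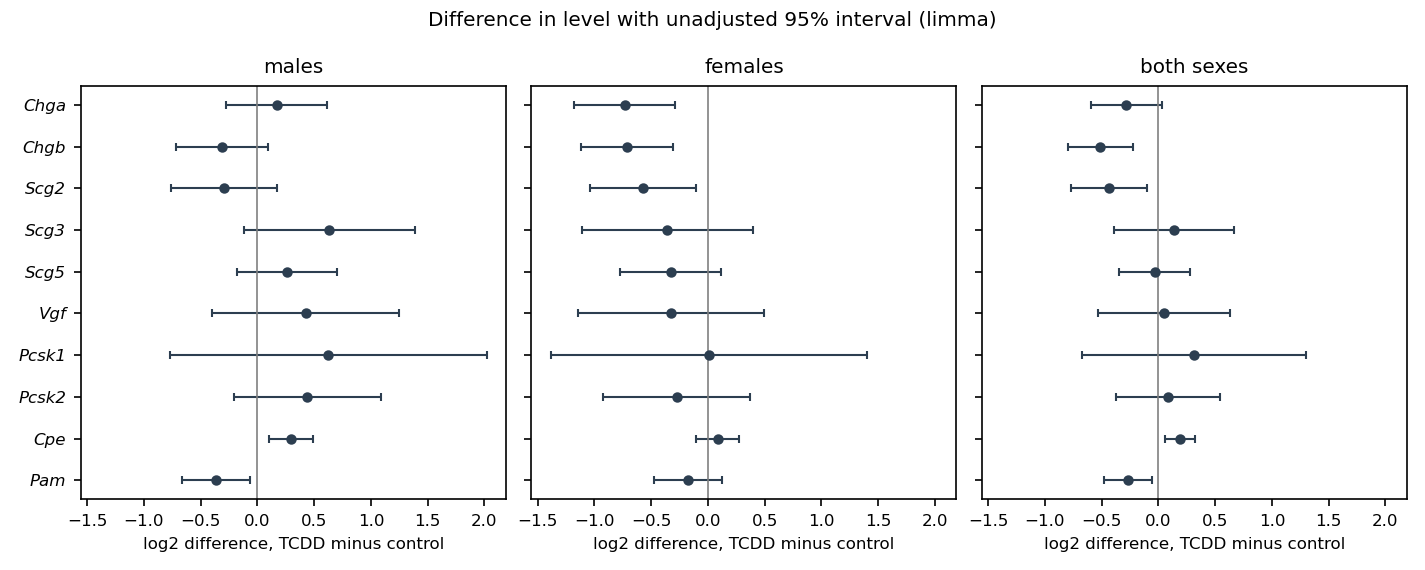
Log2 difference in level, TCDD minus control (x axis), for each gene (y axis) in males, females and over both sexes. Points are limma estimates on 12 arrays and bars are unadjusted 95% intervals. In males most points lie right of 0, in females most lie left of it, and over both sexes the intervals of Chgb, Scg2, Cpe and Pam leave out 0, although none passed after adjustment over all genes.

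The difference between the sexes was tested directly, as the TCDD effect in males minus that in females. It lay above 0 for 9 of 10 genes, against 57.0% of all genes, with a median of 0.60 against 0.05 (0.37 without female TCDD replicate 2). Chga had a value of 0.90 (SE 0.28, unadjusted 95% interval 0.27 to 1.53, limma adjusted p = 0.883), and Scg3 had 0.99 (SE 0.48, unadjusted 95% interval -0.07 to 2.06, limma adjusted p = 0.883). The other genes with a value above 0 ranged from 0.21 for Cpe to 0.75 for Vgf, and Pam stood at -0.19. By limma 0 of 10 genes and 0 of 19382 were called, a share of 0%, and at an unadjusted p below 0.05 there was 1 of 10 genes, Chga, against 4.47% of all genes. The effect of TCDD was thus not shown to differ between males and females for any of the 10 genes.

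Male and female controls were compared without exposure. All male controls were on slide 1 and the female controls on slides 2 and 3, so sex and slide cannot be told apart here. Male minus female, 9 of 10 genes lay below 0, against 58.1% of all genes, with a median of -0.18 against -0.03. That median was -0.09 without female control replicate 1, -0.12 without female control replicate 2 and -0.33 without female control replicate 3. With slide as a fixed block it was -0.43, a value that links the slides only through TCDD arrays, since no slide held controls of both sexes. Pcsk1 had the lowest value, -0.51 (SE 0.63), and Pam the highest, 0.30 (SE 0.13, limma adjusted p = 0.915). Of the 10 genes, 0 were called by limma, against 0.0103% of all genes, and 0 had an unadjusted p below 0.05, against 5.51% of all genes. The female controls include replicate 1, the array with the highest Chga (1.28), Chgb (4.75) and Scg2 (3.75) of all 12.

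The ganglion signal moved with several of these genes. Pcsk2 had 5 of its 6 arrays of high Avil above all 6 others (median -4.05 on arrays of high Avil and -4.45 on the others). Vgf had 4 of 6 above all others (medians 2.23 and 1.61), and so had Pcsk1 (medians -1.79 and -3.03). Both convertases thus stood higher where Avil was high. Scg3 and Scg5 had 3 each, with medians of -1.01 and -1.68 for Scg3 and of 3.04 and 2.74 for Scg5. Cpe had 2, with medians of 2.40 and 2.30. Thus 6 of 10 genes had the higher median on the arrays of high Avil, against 32.3% of all genes. The remaining granins and Pam went the other way: the medians were 3.94 and 4.16 for Chgb, 3.20 and 3.46 for Scg2, 0.66 and 0.91 for Chga and -0.95 and -0.65 for Pam. How far ganglion tissue contributes to these levels was not tested.

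Within the arrays of high Avil, 4 TCDD arrays can be set against 2 control arrays. Chgb was 3.52 to 3.97 on the TCDD arrays, against 4.24 to 4.42 on the control arrays, with no overlap, and Scg2 was 2.61 to 3.22 on the TCDD arrays, against 3.43 to 3.46 on the control arrays. The other 8 genes overlapped, so 2 of 10 genes were separated in the lower direction, where 7.27% of all genes were, and 0 of 10 in the higher, where 6.85% were. Within the other 6 arrays, 2 TCDD against 4 control, 0 of 10 genes were separated in either direction, where 4.63% of all genes were lower and 4.81% higher. On those arrays Chgb was 4.18 in the male and 3.60 in the female TCDD array, against 4.09 to 4.75 in the controls, and Scg2 was 3.52 and 2.80 in the same TCDD arrays, against 3.21 to 3.75 in the controls. The low exposed array in both cases was female TCDD replicate 2.

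Without the arrays of high Avil, which leaves 1 TCDD array per sex in the fit, the difference over both sexes was -0.43 for Chgb, -0.31 for Scg2, -0.30 for Chga, -0.19 for Pam and 0.17 for Cpe. With the mean of the ganglion markers as a covariate on all 12 arrays it was -0.49, -0.37, -0.28, -0.21 and 0.15 for the same genes. These 5 kept their direction in both fits. The sign of Scg3, Vgf and Pcsk2, above 0 in the fit of group means, turned in both: Scg3 had -0.16 without those arrays and -0.09 with the covariate, Vgf had -0.51 and -0.22, and Pcsk2 had -0.32 and -0.13. Pcsk1 turned with the covariate only, at -0.09, and Scg5 stayed below 0, at -0.30 and -0.18. By sex, without the arrays of high Avil, Scg2 stood at 0.15 and Chgb at -0.01 in males, and at -0.78 and -0.84 in females, each from 1 exposed array.

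Slides bore on the comparison as well. Slide 1 held the 3 male controls and male TCDD replicate 1, slide 3 held the 3 female TCDD arrays and female control replicate 3, and slide 2 held 2 male TCDD and 2 female control arrays. A comparison within slides therefore rests on 1 array of a group. It is also uneven in ganglion signal. On slide 1 the TCDD array had the highest Avil of all (1.63), and of the male controls only replicate 2 was high. On slide 3, TCDD replicates 1 and 3 had high Avil, and the control had not (-3.65). The part of ganglion signal in the values with the block was not tested. With slide as a fixed block the difference over both sexes was -0.55 for Chgb, -0.62 for Scg2, -0.34 for Chga, -0.35 for Pam, 0.31 for Cpe, 0.53 for Scg3, 0.25 for Scg5, 0.42 for Vgf, 0.47 for Pcsk2 and 1.43 for Pcsk1. Within slide 1 the male difference was -0.68 for Chgb and -0.78 for Scg2, and within slide 3 the female difference was -0.42 for Chgb and -0.45 for Scg2. Of the 10 genes, Scg5 alone had another sign over both sexes with the block than without it, and none was called.

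**Figure D3:**
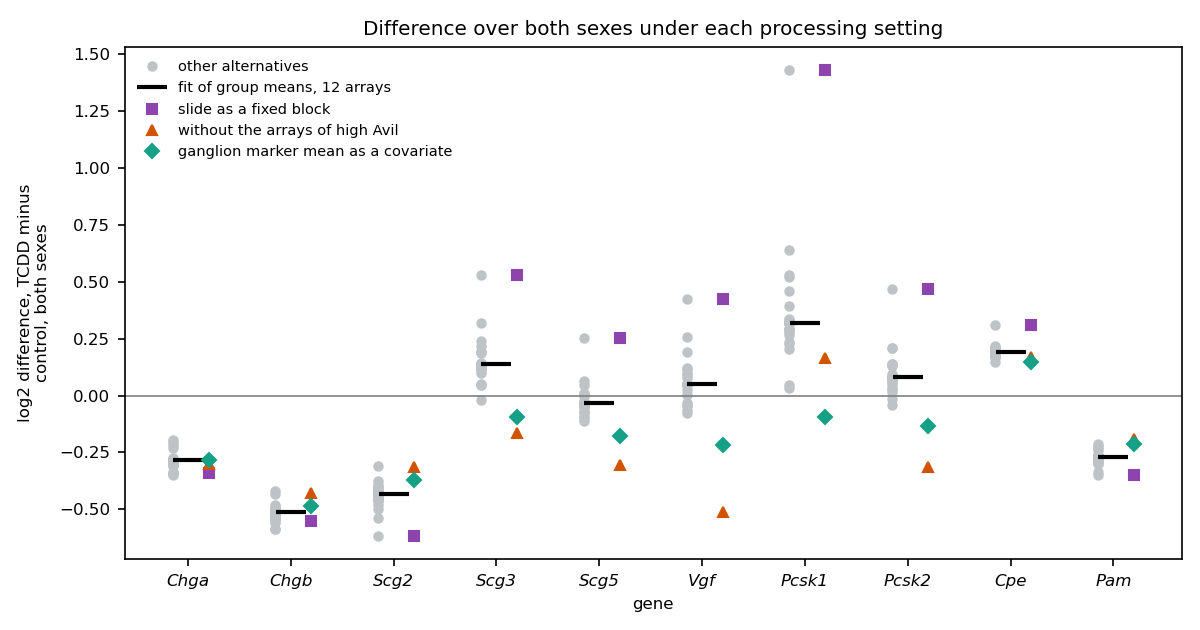
Log2 difference over both sexes, TCDD minus control (y axis), for each gene (x axis) under each way of processing the arrays. Black bars are the fit of group means on 12 arrays, and coloured markers are slide as a fixed block (squares), the fit without the arrays of high Avil (triangles) and a covariate for the mean of the ganglion markers (diamonds), while grey points are all other alternatives. Chga, Chgb, Scg2 and Pam stay below 0 and Cpe above 0 under every one of the 27 alternatives shown, and Scg3, Scg5, Vgf, Pcsk1 and Pcsk2 fall on both sides of 0.

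The genes were then set against each other across arrays, separately over the 6 arrays of high Avil and the 6 others, because a correlation over all 12 would mix the 2 sets. The points share tissue, slide and scaling, and the correlations are given as a description. The closest pair was Scg5 and Pcsk2, the chaperone and its enzyme, with Pearson's r of 0.94 on the arrays of high Avil and 0.99 on the others. Scg3 and Vgf had 0.85 and 0.86, Scg3 and Scg5 0.81 and 0.80, Chgb and Scg2 0.79 and 0.95, and Chga and Chgb 0.78 and 0.89. Of 45 pairs, 10 had r above 0.6 in both sets. The share among all pairs of genes was not computed. By the lower r, 96.0% to 99.9% of genes were less like one gene of such a pair than its partner was. Leaving out male TCDD replicate 1 from the first set and female TCDD replicate 2 from the second, an alternative chosen after the values were seen, 5 of those 10 pairs stayed above 0.6, and they are the 5 just named. Other pairs rose past it, so that 13 of 45 pairs had r above 0.6 in both sets without these arrays, again with no share over all genes. Chgb and Pcsk1, for example, went from -0.01 and 0.06 to 0.89 and 0.94. Which genes group together thus depends on these 2 arrays. Scg5 and Pcsk2 then had 0.92 and 0.97, and Chgb and Scg2 had 0.62 and 0.88.

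Other pairs went together on one set of arrays and not on the other. Chgb and Vgf had r of -0.42 on the arrays of high Avil and 0.95 on the others, and Scg2 and Pcsk2 had -0.63 and 0.85. Without male TCDD replicate 1 the first value became 0.07 for each of these pairs, and without female TCDD replicate 2 the second became 0.88 for Chgb and Vgf and 0.43 for Scg2 and Pcsk2. Vgf and Pam had -0.71 and 0.67, and -0.58 and 0.27 without the same single arrays. Pcsk1 and Scg5 had 0.92 on the arrays of high Avil and -0.05 on the others, and 0.82 and 0.89 without the same single arrays. Individual arrays were extreme for many genes: male TCDD replicate 1 had the highest level of 12 for Scg5, Vgf, Pcsk1, Pcsk2 and Cpe and the lowest for Chgb, Scg2 and Pam, and female TCDD replicate 2 had the lowest for Chga, Scg3, Scg5, Vgf and Pcsk2.

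**Figure D4:**
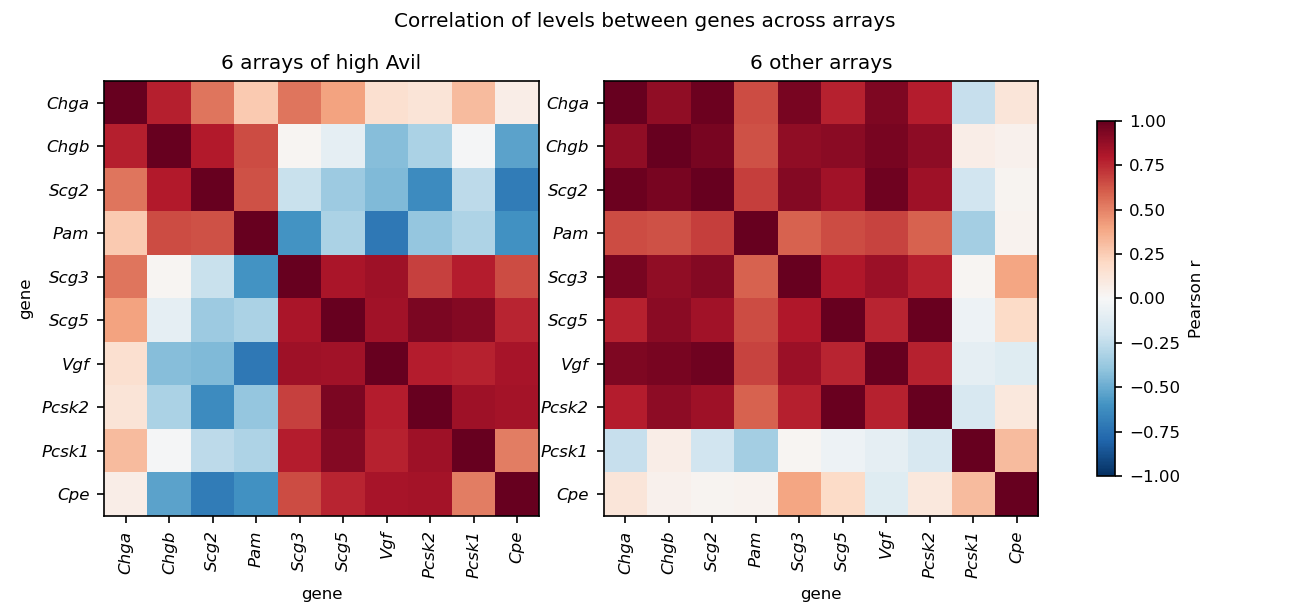
Pearson's r between the levels of each pair of the 10 genes (rows and columns, same order) across the 6 arrays of high Avil (left) and the 6 other arrays (right), with colour from -1 (blue) to 1 (red). A block of Scg3, Scg5, Vgf and Pcsk2 and a block of Chga, Chgb and Scg2 are above 0 in both panels, and the squares that join Chgb and Scg2 to the first block are pale or blue on the left and red on the right. The left values depend on male TCDD replicate 1, without which Chgb with Scg5 had 0.69 (-0.09 with it) and Chgb with Pcsk2 0.59 (-0.32 with it).

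Outside the 10 genes, those of most similar pattern were taken as the 3 genes with the highest value of the lower of the same 2 correlations, over 6 and 6 arrays. For Scg5 they included Slc35g2 (lower r 0.98) and Snph (0.97), and for Pcsk2 they were Rprml (0.97), Rab3ip (0.97) and Prkaa2 (0.96). For Chgb they were Cmtm8 (0.95), Tmem30b (0.94) and Tent5a (0.93), and for Scg2 Mfng, Fam92b and Cela3b (0.94 each). No gene outside the 10 was shared between these sets. Scg3 was closest to Stard10 (0.95), Cpe to Dok6 (0.94), and Chga to Yars2 (0.93). Vgf was followed by Noct (0.93) and Cabp1 (0.92), Pam by Smarca1 (0.91), and Pcsk1 by Or4b1 and LOC685368 (0.91 each). These are the highest of all genes searched, so their size is not comparable with that of the pairs among the 10.

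The wider secretory pathway gave no called gene either. Of 13 measured further processing enzymes and inhibitors (14 listed), 0 were called over both sexes, against 0.0206% of all genes. With so few genes called in all, 0 in a list of this size says little. In this list 4 lay above 0 and 9 below, against 44.2% and 55.8% of all genes. The median difference over both sexes was -0.06, against -0.02 over all genes. Qpct, the enzyme that forms terminal pyroglutamate, had 0.63 (SE 0.23; well above background on 6 TCDD and 4 control arrays). Against the same shares of all genes, 0 of 27 measured genes of the granule membrane and exocytosis (29 listed) were called. Among them 15 lay above 0 and 12 below, with a median of 0.13. Stx1a, a plasma membrane SNARE, had 0.74 (SE 0.40), and Slc18a1, the vesicular monoamine transporter of endocrine cells, had -1.17 (SE 0.65; well above background on 4 TCDD and 6 control arrays). Of 11 measured regulators of neuroendocrine secretory genes (12 listed), 0 were called and the median was 0.03, with 2 transcription factors of neurons at the top, Neurod2 at 1.56 (SE 0.58; well above background on 6 TCDD and 4 control arrays) and Myt1l at 1.44 (SE 0.98). The limma adjusted p was 0.670 for each of these 5 genes. Stx1a was 1.79 to 3.06 on arrays of high Avil, against 0.65 to 1.19 on the others. Myt1l was -3.03 to -1.42 on arrays of high Avil, against -6.14 to -5.36 on the others. Qpct, Slc18a1 and Neurod2 overlapped between these sets of arrays. The part of ganglion tissue in the differences of Stx1a and Myt1l was not tested.

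The hormones stored in the granules gave no called gene. Of 7 pituitary hormone genes, 6 lay below 0 over both sexes, against 55.8% of all genes, with a median of -0.58. Their mean level was -0.19 to 1.26 on arrays of high Avil, against 0.80 to 1.73 on the others. Pomc had no value on female control replicate 3, and the mean there left it out. Gh1, growth hormone, was -4.39 to -1.77 on TCDD arrays, against -2.45 to 0.18 on control arrays, a difference of -2.39 (SE 0.59, limma adjusted p = 0.585). Fshb, the beta chain of follicle-stimulating hormone, had -1.26 (SE 0.42, limma adjusted p = 0.670) and was well above background on 3 TCDD and 5 control arrays. The 11 measured neuropeptide genes of sensory ganglia (12 listed) had 9 above 0 and 2 below, against 44.2% and 55.8% of all genes. Their median difference was 0.80, and their mean level was -1.30 to -0.34 on arrays of high Avil, against -2.67 to -2.53 on the others. Adcyap1 had 2.06 (SE 1.41, limma adjusted p = 0.670) and Calca 1.60 (SE 1.36, limma adjusted p = 0.683). Both were high on exactly the arrays of high Avil, and so were Tac1, Calcb and Gal. Pdyn went the other way and was lower on every array of high Avil than on any other array, by a narrow margin. Sst, Npy, Vip, Penk and Cartpt overlapped between these sets of arrays.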

How the data were processed

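Amplified, Cy3-labelled cRNA was read on a whole rat genome array with 60-base probes, per the labels' protocols. In the deposited scanner files each spot has a linear intensity, background-corrected by Agilent Feature Extraction (version 10.7.1.1 per the file headers, 9.5.1.1 per the submitters' processing notes), with probe positions on rn4. Of 42877 spots that were not controls on each array, 74.4% to 77.4% lay well above background and 0 were saturated, and replicate spots varied by a median of 3.49% to 4.23% (coefficient of variation). The number of arrays limits the precision.

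Outlier spots were left out, log2 intensity was centred on each array's 75th percentile, and probes well above background on at least 3 of 12 arrays with at least 10 values were kept (22431 of 30367). The brightest kept probe stood for its gene. By accession 18006 probes were named, 2654 by symbol and 9707 by the file's own name. In R 4.3.3, limma 3.58.1 fitted the 4 group means on all arrays, with variances following intensity. P-values were adjusted by Benjamini-Hochberg across 19382 genes, and genes were called at an adjusted p below 0.05. All 10 genes are named whether called or not, and of each list the 2 genes with the largest difference over both sexes, except 1 that is not reported here. The members, marker lists and gene lists were chosen with earlier results of these data known. Arrays of high Avil are those above the largest gap between sorted Avil levels. The authors' deposited value table holds intensity values with a median of 83.5 in every column. It served as an alternative, on a scale taken as linear. Its values agreed in rank with the scanner values, which cannot show the scale, since ranks are the same after a log. The table's centring was inferred from the equal medians, since no source used here states it. Other alternatives were scaling, normexp background correction, filters on dim probes, the variance trend, the probe of a gene, outlier spots, slide and replicate number as blocks, ganglion signal, and leaving out each array.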

Additional observations from a re-analysis of the deposited data

How the results depend on the processing

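None of the 10 genes was called under any alternative run. Over both sexes, 248 of 270 values of a gene under an alternative kept their sign and 22 turned it. In males these were 276 and 4 of 280, and in females 269 and 11 of 280, with 0 calls changed.

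Over both sexes the sign turned for Scg3 at -0.16 without the arrays of high Avil and -0.093 with the ganglion covariate, for Vgf at -0.51 and -0.22, for Pcsk2 at -0.32 and -0.13, and for Pcsk1 at -0.095 with the covariate. Scg5 turned to 0.25 with slide as a fixed block and within slides, and to 0.0045 with slide as a random block. In males Chga turned to -0.18 with the slide block and within slides, and Scg2 to 0.15 and Pcsk1 to -0.25 without the arrays of high Avil. In females, with the slide block and within slides, Scg3 turned to 0.27 and Vgf to 0.052, and Pcsk1 turned to -0.059 with normexp and -0.31 with the covariate. Leaving out 1 array at a time over both sexes, Scg3 ranged from -0.020 to 0.32, Scg5 from -0.11 to 0.062, Vgf from -0.076 to 0.26 and Pcsk2 from -0.043 to 0.21. In the same fits Pcsk1 ranged from 0.031 to 0.64 over both sexes. In males the ranges were 0.036 to 0.34 for Chga, -0.46 to -0.13 for Chgb, -0.50 to -0.049 for Scg2, 0.13 to 0.42 for Scg5, 0.20 to 0.71 for Vgf, 0.085 to 1.27 for Pcsk1 and 0.19 to 0.70 for Pcsk2. The lowest of these for Scg5, Pcsk1 and Pcsk2, and the value nearest 0 for Chgb and Scg2, came without male TCDD replicate 1, and the lowest for Chga and Vgf without male control replicate 1. In females Scg3 ranged from -0.67 to 0.0073, Vgf from -0.58 to 0.092, Pcsk1 from -0.56 to 0.43 and Cpe from -4.18e-05 to 0.14. A group left with 1 array was assumed to vary like the others. The cause of these turns was not tested.

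Few genes were called at all. Over both sexes the 4 genes became 15 with the slide block, 11 within slides, 11 with the covariate and 0 without the arrays of high Avil (543 at an unadjusted p below 0.05), and leaving out 1 array gave 4 to 9 (9 without male TCDD replicate 1, 7 without male TCDD replicate 3 or female control replicate 1). In males the 2 genes became 1 with normexp, with only probes that 12 of 12 arrays had well above background, and with males alone, 4 without the trend and with the covariate, 26 with the slide block, 20 within slides and 0 without the arrays of high Avil (932 at an unadjusted p below 0.05), and 2 to 3 leaving out 1 array. In females the 2 became 1 with normexp and with the stricter filter, and 0 within slides and without the arrays of high Avil (630 and 488 at an unadjusted p below 0.05), and 2 to 3 leaving out 1 array. For the difference between the sexes the 0 became 6 with the slide block. For male against female controls the 2 became 1 with normexp and with the stricter filter, 10 with the slide block, 0 without the arrays of high Avil (812 at an unadjusted p below 0.05) and 1 to 2 leaving out 1 array (1 without male control replicate 2).

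Deviations of same-numbered arrays of a sex from their group means correlated between -0.70 and 0.44. For same-numbered arrays of different sexes the range was -0.61 to 0.75. Differently numbered arrays were not compared, so these values cannot show whether the replicate numbers of the labels pair the arrays. With the replicate number as a block, 2 genes were called over both sexes in place of 4, and no call among the 10 genes changed.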
